A study of Rattus norvegicus with 12 samples.

Results

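The transcriptional response of cultured neonatal rat ventricular myocytes (NRVM) to phenylephrine (PE) was measured by RNA-seq, by comparing the 3 PE libraries with the 3 baseline libraries, which are 6 of the 12 libraries of the series. The libraries were grouped by their treatment labels, and the comparison was chosen with earlier results of these data known. NRVM are primary heart muscle cells taken from the ventricles of Sprague Dawley rat pups at post natal day 2-3. By the methods they were pre-plated and exposed to BrdU against nonmyocytes and were then held in serum-free medium before treatment, so every library comes from a serum-starved primary culture and not from a heart. Baseline cells received vehicle and PE cells received 100 µM PE. The remaining groups were THZ1 at 10 nM, and PE with THZ1, 3 libraries each. They entered the size factors, the mean level used to filter and sort genes, and the estimate of the spread between replicates. The labels give 48 h of treatment, whereas the names of the PE columns in the deposited table give 24 h. The labels do not say whether replicates came from separate cell preparations, so p-values measure the spread between these libraries, which may be technical.

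PE activates the α1-adrenergic receptor, which couples through Gq to phospholipase C, protein kinase C and calcium release. In ventricular myocytes this pathway drives growth in cell size without division, together with the return of genes that the fetal ventricle expresses. The natriuretic peptide genes *Nppa*, which encodes atrial natriuretic peptide, and *Nppb*, which encodes B-type natriuretic peptide, are the classic markers of that response. Both peptides are secreted hormones that promote loss of salt and water and relax blood vessels. Genes carry Ensembl identifiers and no symbols in the deposited data, and the gene table used here matched 0 of these identifiers. Results are therefore named for these 2 genes (*Nppa*, ENSRNOG00000008176, and *Nppb*, ENSRNOG00000008141) and for 4 further identifiers.

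*Nppb* and *Nppa* are neighbours on rat chromosome 5, with starts 12.2 kb apart in RefSeq (build GRCr8), and the stretches just upstream of both are shown because the 2 genes rose together. Each stretch covers 250 to 56 bases before the start, on the plus strand, at chr5:163699758-163699952 for *Nppb* and chr5:163711934-163712128 for *Nppa*. Capitals mark matches to the motifs searched on both strands, namely TGATAA and AGATAA (forms of the GATA factor site), GGAATG (the core of the TEAD factor site), TGANTCA (AP-1), CAAGTG (an NKX2-5 site), the CArG box and the MEF2 box.
Nppb: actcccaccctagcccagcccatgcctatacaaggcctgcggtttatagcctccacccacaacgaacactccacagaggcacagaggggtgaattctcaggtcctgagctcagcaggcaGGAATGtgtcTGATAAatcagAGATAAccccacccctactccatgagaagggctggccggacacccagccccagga
Nppa: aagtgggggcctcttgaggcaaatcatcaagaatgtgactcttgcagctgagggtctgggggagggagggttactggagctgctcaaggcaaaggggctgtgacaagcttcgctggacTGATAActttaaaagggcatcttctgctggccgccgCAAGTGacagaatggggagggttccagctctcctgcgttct
TGATAA was present in both stretches, beginning 121 bases before the start of *Nppb* and 132 before that of *Nppa*, and in 6.57% of 33469 promoter stretches of the same length. *Nppb* also held AGATAA at 110 bases and GGAATG at 131 bases before its start, motifs found in 8.37% and 9.53% of all stretches. *Nppa* held CAAGTG at 96 bases, a motif found in 9.20% of stretches. TGANTCA (5.08% of stretches), the CArG box (1.21%) and the MEF2 box (2.35%) were not in either stretch. None of the motifs searched overlapped another in these windows. A match describes letters only, and no binding was measured here.

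Values are normalized counts, that is reads counted on a gene divided by a size factor for the library, and log2 changes are on the log2(normalized count + 1) scale. Reads counted on genes ranged from 32777334 to 45885754 in the baseline libraries and from 34725954 to 41105955 in the PE libraries. Genes with a mean of at least 10 over the 12 libraries were tested, which kept 14312 of 15920. Every gene in the deposited data had at least 1 read in each of the 12 libraries. Genes lacking reads in some library are therefore absent, and the ranks and counts below do not cover them.

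Baseline replicate 2 stood apart from the other baseline libraries. Its reads differed from those of replicates 1 and 3 by a mean chi-square of 58.5 and 62.5 per gene, whereas replicates 1 and 3 differed from each other by 6.62 and the PE libraries by 4.23 to 7.15. The median chi-square per gene was 3.96 and 4.77 against 1.40, a smaller gap than that of the mean. The side to which it lay was measured with genes it did not help to choose, those changed at least 2-fold when it was left out. Of these 979 genes, it lay on the PE side of both other baseline libraries at 732 (74.8%) and on the far side of both at 76 (7.76%). The same count for baseline replicate 1 was 146 of 728 genes (20.1%), and for replicate 3 it was 195 of 753 (25.9%). Across the 979 genes replicate 2 had covered a median of 18.0% or 23.4% of the way from baseline to PE, depending on which of the other baseline libraries marked the start and which the distance. Over all 14312 genes its difference from replicate 1 had a Pearson r of 0.41 with the difference of the PE mean from replicate 3, a correlation across genes, which are not independent replicates. The results that moved most with this library are given with and without it.

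**Figure D1:**
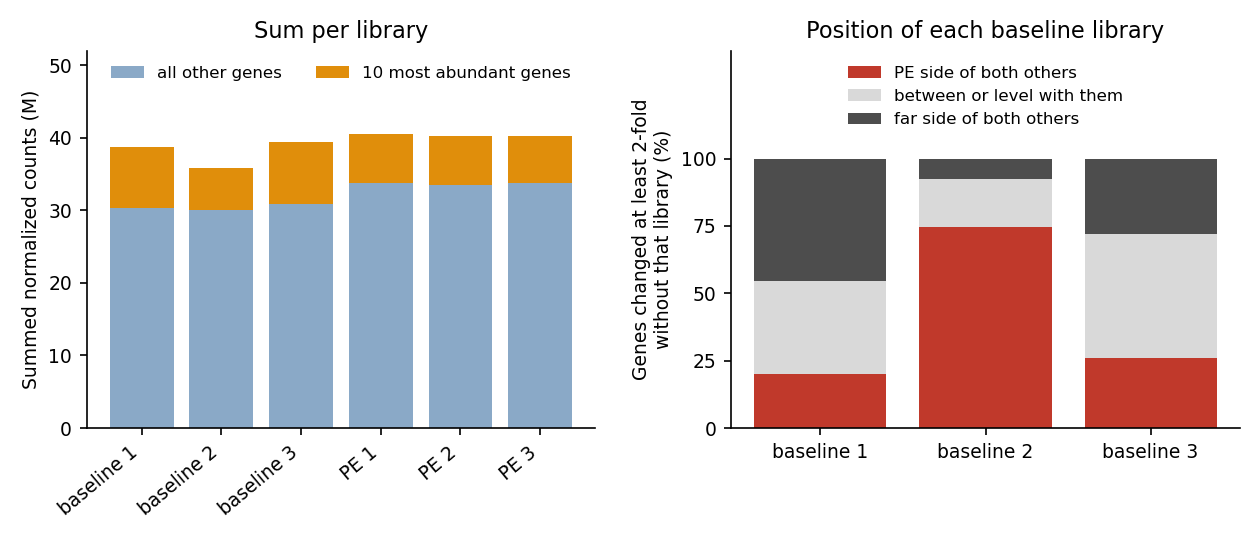
Left, summed normalized counts in M (mega-counts) for each baseline and PE library, split into the 10 most abundant genes (orange) and all other genes (blue). Right, for each baseline library, the share of genes changed at least 2-fold without that library at which it lay on the PE side of both other baseline libraries (red), between or level with them (light grey) or on the far side (dark grey); replicate 2 lay on the PE side at 74.8% of genes, against 20.1% and 25.9% for replicates 1 and 3.

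Both natriuretic peptide genes rose with PE, and *Nppa* more than *Nppb*. *Nppa* stood at 19671, 35096 and 19451 normalized counts in baseline replicates 1 to 3 and at 212186, 200278 and 252496 in the PE libraries. The groups were far apart, with the highest baseline value in replicate 2. The mean went from 24739 ± 8970 (SD, n = 3) to 221653 ± 27366, higher by 3.21 on the log2 scale (standard error 0.15), or 9.28-fold, with an adjusted p of 2.8e-11 (limma with Benjamini-Hochberg adjustment). This was the largest log2 rise among all 14312 genes tested, whose median log2 change was 0.018. Without baseline replicate 2 *Nppa* was higher by 3.50 (standard error 0.071) with an adjusted p of 9.2e-19 from limma.

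*Nppb* stood at 11446, 19054 and 13931 normalized counts at baseline and at 63296, 62879 and 69084 with PE, and its groups did not overlap either. It was higher by 2.17 on the log2 scale (standard error 0.13), or 4.49-fold, with an adjusted p of 5.9e-10 from limma, and by 2.36 without baseline replicate 2 (adjusted p = 1.3e-14 from limma). It ranked 25 by log2 rise among all genes tested and 3 among the 523 genes with a mean of at least 10000. At these counts, counting error is far smaller than the spread between libraries.

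Both genes also rose as a share of a library's own counts, which does not depend on the scaling. *Nppa* made up 0.0508%, 0.0981% and 0.0494% of the normalized counts of the baseline libraries and 0.524%, 0.497% and 0.627% of the PE libraries. *Nppb* made up 0.0295%, 0.0532% and 0.0354% at baseline and 0.156%, 0.156% and 0.171% with PE. By count, which also grows with transcript length, *Nppa* moved from rank 188, 87 and 193 of all genes at baseline to rank 14, 17 and 15 with PE. *Nppb* moved from rank 427, 196 and 325 to rank 44, 42 and 41.

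The balance between the 2 peptides also shifted. The ratio of *Nppa* to *Nppb* normalized counts, which no scaling of a library can change, was 1.72, 1.84 and 1.40 at baseline and 3.35, 3.19 and 3.65 with PE. All PE ratios were above all baseline ratios, and unlike the single genes the ratio did not set baseline replicate 2 apart by much. The log2 ratio was higher by 1.05 with PE (exact permutation test over libraries, two-sided, p = 0.1, the smallest that 3 libraries against 3 can give). With each library left out in turn the difference ranged from 0.93 to 1.13.

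**Figure D2:**
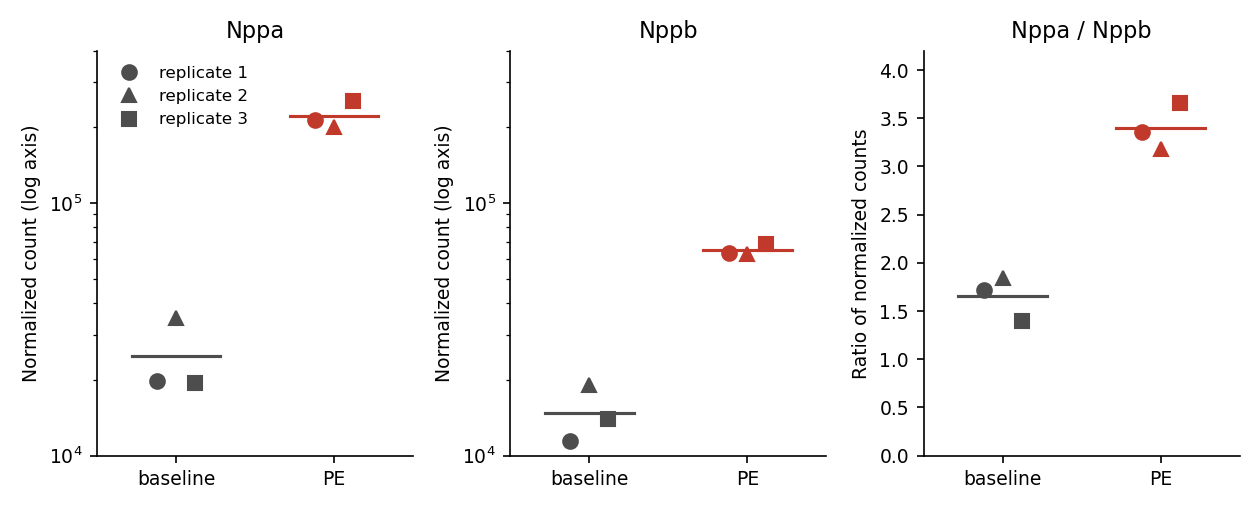
Normalized counts of Nppa and Nppb (log axes) and the ratio of the 2 (linear axis) in each baseline (grey) and PE (red) library, with the symbol giving the replicate number and the line the group mean of 3. PE values lie above all baseline values in each panel, from 200278 to 252496 for Nppa against 19451 to 35096 at baseline, and baseline replicate 2 (triangle) is the highest baseline value of both genes.

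Beyond the markers, PE changed the level of many genes by small amounts. Of the 14312 genes tested, 7899 differed at an adjusted p under 0.05 (55.2%, limma), 4304 of them higher (30.1%) and 3595 lower (25.1%). The median log2 change was 0.36 for the genes that rose and -0.42 for those that fell, against a median standard error of 0.075 over all genes tested. Most changes were well under 2-fold, with 63.9% of the changed genes under 0.5 in absolute log2 change. The middle of the distribution was narrow, with quartiles of -0.24 and 0.25 over all genes tested, while 5% of genes lay below -0.81 and 5% above 0.73. In bulk RNA from a culture, a change in RNA per cell and a change in the share of cells of a type cannot be told apart.

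At least 2-fold changes were fewer and leaned towards loss, though not among the most abundant genes. A total of 778 genes (5.44%) passed the threshold and differed at least 2-fold, of which 346 were higher (2.42%) and 432 lower (3.02%). The median level was 146 normalized counts for these rises and 76.4 for the falls. Among the 523 genes with a mean of at least 10000, 27 rose at least 2-fold and 4 fell. Of the 778 genes, 759 had no overlap between the 3 PE and the 3 baseline libraries. They were picked on the same difference, so little overlap follows from the choice. Over all genes tested, 30.8% were higher and 26.1% lower without overlap. A 4-fold change was reached by 36 genes that rose and 48 that fell, and an 8-fold change by 2 that rose and 6 that fell. Of the 4-fold changes, 19 of the 36 rises and 18 of the 48 falls had a mean of at least 100 normalized counts. Without baseline replicate 2 the number of genes changed at least 2-fold was 979, of which 752 were among the 778.

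Counted without a model, all 3 PE libraries lay above all 3 baseline libraries at 4410 genes (30.8%) and below them at 3742 (26.1%). Of the 7899 changed genes, which were called on the same libraries, 7258 showed no overlap and 641 did. A further 894 genes had no overlap and did not pass the threshold.

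The balance of rises and falls depended on the scaling. After the deposited scaling the summed normalized counts, in mega-counts (M), were 38.8, 35.8 and 39.4 M in the baseline libraries and 40.5, 40.3 and 40.3 M in the PE libraries. Every PE sum was above every baseline sum, by 2.40 M on average (exact permutation test, two-sided, p = 0.1, the smallest possible here), and the baseline sums were the more spread out. Without baseline replicate 2 the difference was 1.30 M (exact permutation test, p = 0.2, the smallest that 2 libraries against 3 can give). When the libraries were set to equal totals, the median log2 change of all genes moved down by 0.089, and 2803 genes were higher and 4690 lower, so that 37.4% of changed genes were higher against 54.5% with the deposited scaling. All 3595 genes lower with the deposited scaling were also lower with equal totals, 2803 of the 4304 higher genes were also higher, and 0 genes were called in opposite directions. TMM scaling gave 3949 higher and 3903 lower.

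**Figure D3:**
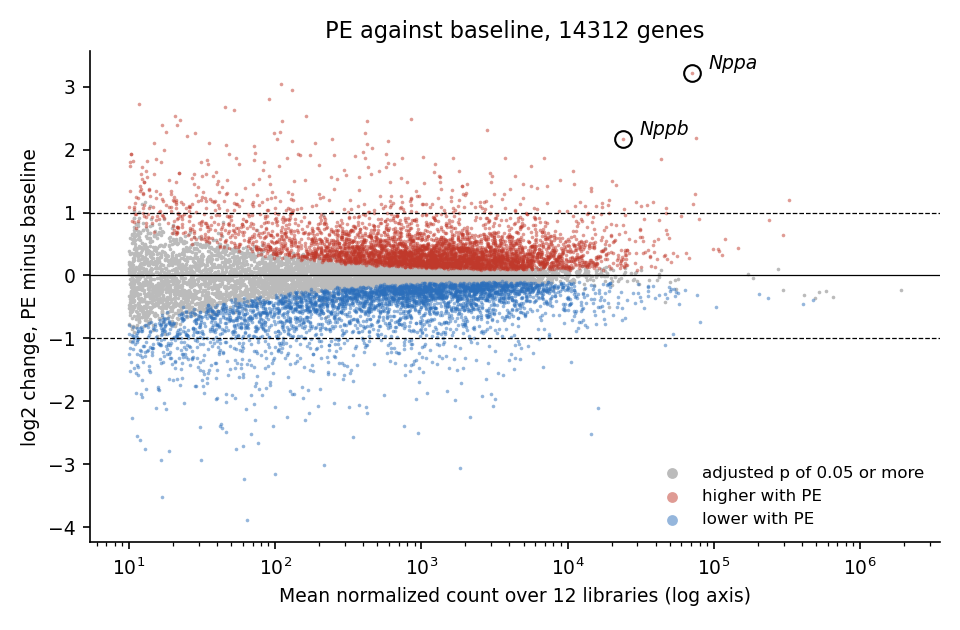
Log2 change (PE minus baseline) against the mean normalized count over the 12 libraries (log axis) for the 14312 genes tested, with genes higher with PE in red, lower in blue and those with an adjusted p of 0.05 or more in grey, and dashed lines at log2 changes of 1 and -1. Nppa and Nppb (circled) had log2 changes of 3.21 and 2.17, ranks 1 and 3 among the 523 genes with a mean of at least 10000, and the grey band narrows from left to right as the standard error shrinks with level.

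Rises and falls were not spread alike over the range of expression. Genes were split by their mean over the 12 libraries into 10 level groups of equal size, from 1 (lowest) to 10 (highest). In the lowest group (means of 10.0 to 27.9) 137 of 1432 genes rose and 232 fell, with a median log2 change of -0.14. In level group 2, 192 rose and 405 fell, and the median was -0.15. Rises and falls were about equal in number in level group 4 (means of 194 to 371), at 390 and 373. In the highest group (means from 4600 upwards) 698 rose and 353 fell, with a median of 0.099.

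The share of genes that rose went up with level, from 9.57% in the lowest level group to 48.7% in the highest, while the share that fell stayed between 24.7% and 28.3% in all groups but the lowest, where it was 16.2%. The size of the change that could be called shrank over the same range, since the median standard error fell from 0.31 to 0.046. Changed genes had a median absolute log2 change of 1.03 in the lowest level group, 0.28 in group 9 and 0.31 in the highest. At least 2-fold changes followed the same division, with 79 rises and 116 falls in the lowest level group against 41 rises and 11 falls in the highest. Among the 523 genes with a mean of at least 10000, 280 were higher and 128 lower, and 27 were higher at least 2-fold against 4 that were lower.

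The medians of the lowest and highest level group kept their signs without baseline replicate 2 and reversed with quantile normalization. Equal totals also kept the signs, but little was left of the rise in the highest group. With equal totals the medians of the lowest and highest level group were -0.22 and 0.0097, and those of groups 4 and 9 were -0.071 and -0.027. Without baseline replicate 2 the lowest and highest group had medians of -0.16 and 0.097. Since the mean that sorts the genes includes the PE libraries, the split was repeated on the mean of the 6 libraries outside the comparison, which gave -0.10 for the lowest and 0.074 for the highest level group. Quantile normalization, which gives every library the same distribution by construction, gave 0.0085 and -0.026. Depth and counting noise move with level, and their part in the pattern was not tested.

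**Figure D4:**
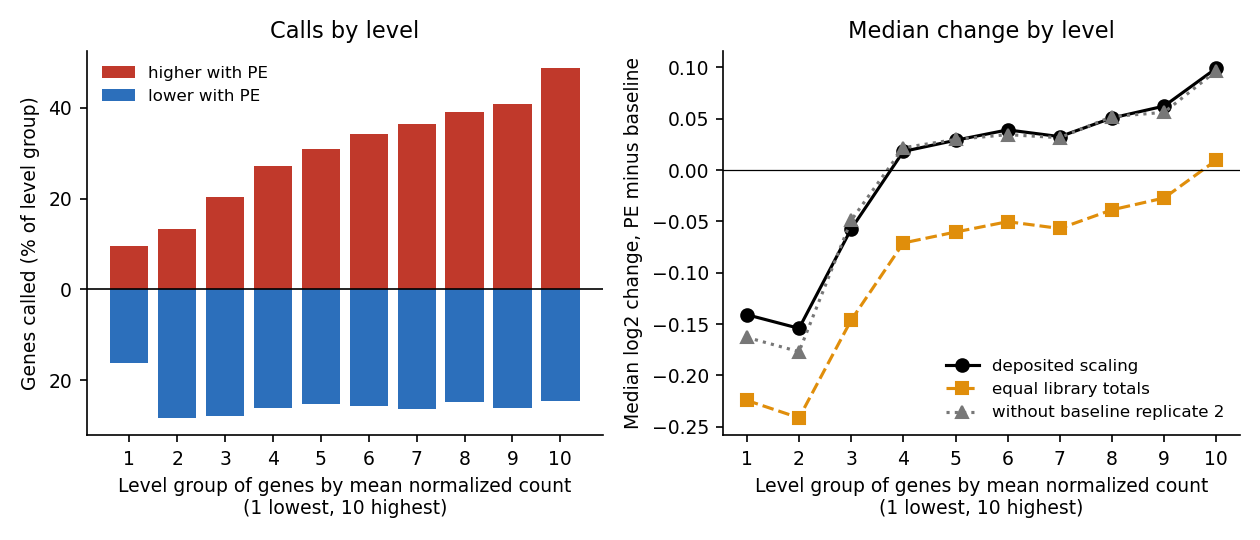
Left, percent of the genes in each level group that were higher (red, upwards) or lower (blue, downwards) with PE at an adjusted p under 0.05. Right, median log2 change (PE minus baseline) of each level group with the deposited scaling (black), with equal library totals (orange) and without baseline replicate 2 (grey); the medians go from -0.14 in the lowest level group to 0.099 in the highest with the deposited scaling, and equal totals shift the whole curve down.

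In counts rather than folds, the gains and losses were uneven across genes. Adding up the differences of the group means, 7437 genes gained 6.03 M normalized counts in all and 6875 genes lost 3.63 M. The 10 genes with the largest gain held 25.4% of the gain, and 87 genes held 50% of it. For comparison, the 10 most abundant genes of each baseline or PE library held 15.9% to 22.1% of its counts. *Nppa* ranked 3 with 3.27% of the gain and *Nppb* ranked 12. All 10 top gains passed the threshold without overlap, with log2 changes from 0.44 to 3.21. They were picked on the same difference that was tested. Over all genes tested, 30.1% were called higher and 30.8% were higher without overlap.

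The losses in counts were more concentrated, and fewer of their top genes were called. The 10 genes with the largest loss held 41.9% of it, and 23 genes held 50%. Of the 10, 3 passed the threshold and 1 showed no overlap. Over all genes tested, 25.1% were called lower and 26.1% were lower without overlap. In all 10, baseline replicates 1 and 3 were above all PE libraries, and in 9 of them baseline replicate 2 was at or under the highest PE library. Without replicate 2, 10 of 10 were called lower, as were 4057 of all 14312 genes tested. The 10 were picked on the same difference that was tested, with replicates 1 and 3 above PE in each. That count therefore adds no separate evidence of loss. Recomputed without that library, the loss was 4.97 M, its own top 10 genes held 50.6% of it and 10 genes held 50%, while the gain was 6.28 M with 25.2% in its top 10 genes and 91 genes for 50%.
The 10 most abundant genes of the series together summed to 8.37, 5.68 and 8.46 M at baseline and 6.69, 6.77 and 6.52 M with PE. In this sum replicate 2 was below all PE libraries, whereas replicates 1 and 3 were above them. Without these 10 genes the sums were 30.4, 30.1 and 30.9 M at baseline and 33.8, 33.5 and 33.8 M with PE, with no library standing apart.

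The 7899 changed genes also moved weight within the libraries, as a description of genes chosen on this comparison. Genes called higher took 33.6%, 39.1% and 33.9% of the counts at baseline and 47.8%, 47.2% and 48.2% with PE. Genes called lower took 25.6%, 24.5% and 25.3% at baseline and 18.1%, 18.3% and 17.7% with PE. Replicate 2 was the baseline library nearest to PE on both.

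The 4 further identifiers, which have no symbol here, had the largest changes in folds or in counts among called genes, within the limits given for each. The gene with the largest loss in counts of all was not called and is not among them. It held 10.1% of the summed loss, more than ENSRNOG00000029971 below. ENSRNOG00000001193, the largest log2 rise after *Nppa* among genes with a mean of at least 100, had 31.2, 56.8 and 34.3 normalized counts at baseline and 340, 320 and 330 with PE. It was a low gene that became a moderate one, higher by 3.04 on the log2 scale (standard error 0.20) with an adjusted p of 1.0e-09 from limma. ENSRNOG00000008536, the largest gain in counts, had 267148, 334907 and 281396 at baseline and 705339, 659289 and 654185 with PE. It was already far above *Nppa* in counts at baseline, and it was higher by 1.20 on the log2 scale (standard error 0.080) with an adjusted p of 1.4e-09 from limma.

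ENSRNOG00000027742, the largest log2 fall without overlap among genes with a mean of at least 100, had 3188, 3133 and 3124 normalized counts at baseline and 440, 396 and 310 with PE. Its baseline values were tight, replicate 2 included, and the difference was -3.06 on the log2 scale (standard error 0.099) with an adjusted p of 4.1e-13 from limma. ENSRNOG00000029971, the largest loss in counts among called genes, had 628401, 368497 and 666128 at baseline and 380716, 397201 and 394728 with PE. Its groups overlapped, because baseline replicate 2 was below all PE libraries. The difference was -0.46 on the log2 scale (standard error 0.16) with an adjusted p of 0.019 from limma, and -0.73 (adjusted p = 1.2e-07) without that replicate. It was not called without baseline replicate 3, where the log2 change was -0.30 (adjusted p = 0.12), nor without baseline replicate 1 (-0.34, adjusted p = 0.096) or PE replicate 1 (-0.44, adjusted p = 0.055). With all 6 libraries kept, the call was also lost when the prior variance did not follow expression (limma, adjusted p = 0.067) and when only these 6 libraries entered the fit (limma, adjusted p = 0.051).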

How the data were processed

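NRVM RNA was sequenced as single-end reads. By the methods and the submitters' processing notes, the authors aligned reads to rn5 with TopHat2 2.1.1, assigned them to genes by strand with htseq-count, and divided the counts by DESeq2 size factors from all rat libraries in 1 run. The deposited values are therefore a signal, normalized counts, none of them 0. A last column holds the authors' gene clusters, a category not used as a measurement. Whole reads were recovered from the value of 1 read (100% of values whole within 0.01). PE was compared with baseline by limma 3.58.1 in R 4.3.3 on log2(value + 1), with all 12 libraries in the fit, a prior variance that follows expression, two-sided tests and Benjamini-Hochberg adjustment at 0.05. The fit was tested on simulated reads. edgeR 4.0.16 (quasi-likelihood) and DESeq2 1.42.0 (Wald) on recovered reads, other pseudocounts, filters and scalings, the 6 libraries alone, a replicate block and each library left out were alternatives.

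The comparison, gene lists and named genes were chosen with earlier results of these data known. *Nppa* and *Nppb* were named by their Ensembl identifiers. The rule for other genes was the largest log2 rise and fall (mean of at least 100, no overlap) and the largest gain and loss in counts among called genes, limited to 2 rises and 2 falls. Lists of pathway and cell type genes, given by symbol, could not be applied because no symbol was paired with an identifier. The cell types in the cultures were therefore not checked. Python 3.11.15 with numpy 2.4.6, pandas 2.3.3, scipy 1.17.1 and matplotlib 3.10.9 handled tables and figures.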

Additional observations from a re-analysis of the deposited data

How the results depend on the processing

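The number of genes changed ranged from 6887 (only the 6 libraries in the fit) to 8071 over the settings that kept all libraries, with 7862 from edgeR and 7385 from DESeq2, and from 6964 to 8687 with each library left out in turn, the highest without baseline replicate 2. Left out in turn, libraries gave 3814 to 4630 genes higher, 3094 to 4057 lower and 728 to 979 changed at least 2-fold. Equal totals left 2803 genes higher, and with a minimum mean of 50, where 12148 genes were tested, 487 were changed at least 2-fold. The log2 change of *Nppa* ranged from 2.92 to 3.21 with all libraries (lowest with quantile normalization) and from 3.07 to 3.50 with each left out, and that of *Nppb* from 1.95 to 2.17 and from 2.00 to 2.36. The summed normalized counts, in mega-counts (M), differed by 1.30 M (without baseline replicate 2) to 3.10 M (without baseline replicate 3) with each library left out and by 3.24 M without the 10 most abundant genes. The median log2 change of the lowest and highest of the 10 level groups, a setting chosen after seeing the data, was 0.0085 and -0.026 with quantile normalization.

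Libraries of the same replicate number share only a number. Their deviations from the group means had a Pearson r of 0.17, 0.0036 and 0.021 over genes for numbers 1 to 3, and not every library was most like its own number. With the number as a replicate block, 8071 genes changed, 7837 of them also without it. The alternatives for gene lists were not run, since the lists could not be matched. The median standard error was 0.31 in the lowest level group and 0.046 in the highest. The part of depth in this was not tested.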

Other observations

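The deposited table assigns every gene to 1 of 6 clusters, which the authors made from these same libraries, so the following describes the clusters and tests nothing. Cluster numbers are those of the table and differ from those in the paper, which places *Nppa* and *Nppb* in its cluster 5. Over all 14312 genes tested, 30.1% were higher and 25.1% lower. The genes raised by PE lay mostly in 2 clusters. In cluster 2, which holds *Nppa* and *Nppb*, 2690 of 3534 tested genes (76.1%) were higher with PE and 2 lower. Its median log2 change was 0.34, and 285 of its genes rose at least 2-fold. In cluster 4, 889 of 1331 (66.8%) were higher and 0 lower, with a median of 0.28, and 49 rose at least 2-fold. The genes lowered by PE lay mostly in 3 clusters. Cluster 5 held 1141 lower genes of 1915 tested (median -0.30), cluster 3 held 898 of 2195 (median -0.17), and cluster 1, the one with most genes, held 1540 lower and 595 higher of 4589 (median -0.091). Cluster 6 had 106 higher (14.2%) and 14 lower (1.87%) genes of 748 tested, both under the shares over all genes.

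The spread between replicates differed between groups. The median SD of log2(normalized count + 1) over genes was 0.115 at baseline, 0.074 with PE, 0.066 with THZ1 alone and 0.069 with PE + THZ1, and the baseline value includes replicate 2.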
